A study of Mus musculus with 42 samples.

Results

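The subject is the interval between 20 and 44 hours after injection in mouse embryos that had received a morpholino against Sall4, as measured on 6 of the series' 42 expression arrays. The arrays were taken by their sample titles: 3 of Sall4 morpholino embryos at 44 h and 3 at 20 h. Every gene that could be named on the array was followed, 18193 in all, and 13956 of them were bright enough to be tested. The question was which changes in mRNA over this interval still took place with the morpholino against Sall4 present. The arrays of embryos without that morpholino served for comparison.

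All embryos were of the hybrid strain B6D2F1. In the Sall4 morpholino groups, and likewise in the groups given another morpholino, fertilized embryos were injected while still 1 cell, cultured in human tubal fluid medium with serum supplement under CO2, and lysed at 44 h or 20 h. Set beside them were Oct4 morpholino embryos at 44 h and 20 h, embryos injected with a control morpholino that has no target in the mouse and collected at 44 h, and uninjected embryos at 44 h and 20 h. Each group had 3 arrays, labelled as biological replicates. The labels do not give the number of embryos behind an array or the cell stage reached. The uninjected embryos differ from the Sall4 morpholino embryos in the injection as well as in the morpholino, and no control-injected group at 20 h belongs to the Sall4 experiment. The titles place the uninjected 20 h arrays in a Sall4 experiment and the uninjected 44 h arrays in a joint Oct4 and Sall4 experiment, so time and experiment cannot be told apart for any gene.

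In the mouse, the egg carries a store of maternal mRNA that drives the first cleavage and is then degraded. Transcription of the embryo's own genome becomes strong at the 2-cell stage, and a further wave before compaction brings up genes for ribosomes, mitochondria, cell adhesion and the first lineage factors. Sall4 is a zinc finger transcription factor, present in the egg and made again by the embryo, that works with Oct4 (the product of Pou5f1) and Nanog in the pluripotency network. A morpholino is a short synthetic strand that binds an mRNA and blocks its translation or splicing, and the mRNA itself may stay at its usual amount.

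Expression was read as the deposited array intensity, in arbitrary units, and changes are given as differences of log2(intensity + 16), 44 h minus 20 h. A gene is said to have risen, fallen or passed where limma's moderated test, fitted over 24 arrays and adjusted by Benjamini-Hochberg over all 13956 genes, gave an adjusted p below 0.05. The median intensity of these 24 arrays ran between 26.1 and 33.3. Over all 45101 probe sets the 3 arrays at 44 h correlated with each other at 0.896 to 0.922 and the 3 at 20 h at 0.934 to 0.949. Between the times the correlations were 0.763 to 0.828. The 44 h replicates were thus the less alike. The number of arrays limits the precision of these values, some of which also moved with the scaling, the pseudocount or the probe set, and with 3 against 3 an exact permutation test of a single gene could not go below 0.1. Because each array reads the RNA of whole embryos, fewer cells of a type and less RNA per cell cannot be told apart.

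The mRNA of the targeted gene was present at both times. Sall4 read 4176, 3279.7 and 3531 in Sall4 morpholino embryos at 44 h, against 2412, 2521 and 1547 at 20 h, so the times did not overlap. The difference was 0.78 ± 0.24 (SE; adjusted p = 0.0133), and uninjected embryos gave 0.77. A second Sall4 probe set gave -0.22, and the call was lost without the 20 h replicate 3 (adjusted p = 0.0909) or the 44 h replicate 1 (adjusted p = 0.0548). As a morpholino can block an mRNA's use without changing its amount, these readings do not check that Sall4 protein was lowered.

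In Sall4 morpholino embryos, array signal rose between 20 h and 44 h for many genes of ribosomes, mitochondria and proteasomes. It rose too for Nanog, Hand1 and Tdgf1, and fell for much of the mRNA known from the egg. The amount of mRNA per embryo was not measured, and the changes are in array signal. Of 13956 genes, 5616 passed (40.2%): 2201 rose (15.8%) and 3415 fell (24.5%). Rises of more than 3 on the log2 scale were made by 187 genes, and falls of that size by 571. In 6941 genes (49.7%) the 3 arrays of 44 h did not overlap the 3 of 20 h. The balance of rises and falls depended on scaling: after each array was scaled to a trimmed mean, 2918 genes rose and 2881 fell, and quantile normalization gave 2592 and 2830. Both were taken over all 42 arrays, including the brighter ones of the Nanog experiment. Median centring, done apart from those arrays, gave 2293 rises and 3333 falls, near the main result. The median of all genes was -0.09 as deposited and 0.10 with the trimmed mean, so a group's median is best read beside that of all genes.

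Bhmt, Hand1, Tdgf1, Slc6a8, Cited1 and Ptch1 were among the 15 largest rises whose times did not overlap. Bhmt, which makes methionine from betaine and homocysteine, read 3397, 2576 and 3844 at 44 h, against 33.3, 22.2 and 21.8 at 20 h, a difference of 6.29 ± 0.37 (SE; adjusted p = 8.37e-10). Hand1, a transcription factor best known in trophoblast cells, read 2241, 1771 and 1877 at 44 h, against 7.61, 17.9 and 4.44 at 20 h, a difference of 6.28 ± 0.38 (SE; adjusted p = 8.96e-10). In both genes every 44 h array stood far above every 20 h array. Hand1 had a second probe set at 3.63. Tdgf1, the Nodal co-receptor Cripto, read 2142, 1382 and 1733 at 44 h, against 8.7, 15.8 and 58 at 20 h, and differed by 5.49 ± 0.39 (SE; adjusted p = 9.32e-09). Slc6a8, the creatine transporter, differed by 5.04 ± 0.37 (SE; adjusted p = 1.14e-08), and Cited1, a transcriptional co-regulator, by 5.17 ± 0.46 (SE; adjusted p = 1.06e-07). Ptch1, the Hedgehog receptor, rose by 5.35 with its brightest probe set, yet this call was lost with a pseudocount of 1 or quantile normalization (adjusted p = 0.858 and 0.55), and its 2 other probe sets gave 0.39 and 0.08.

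Nanog, the homeodomain factor of the pluripotency network, was among these rises. It read 1217, 563 and 697 in Sall4 morpholino embryos at 44 h, against 2.25, 34.6 and 11.2 at 20 h, where it lay near or below the table's median of 29.3. The difference was 4.77 ± 0.51 (SE; adjusted p = 7.48e-07), and uninjected embryos gave 5.50 ± 0.51, with 1072, 735 and 1526 at 44 h against 16.1, 6.11 and 3.13 at 20 h. All 3 Sall4 morpholino arrays at 44 h stood far above every 20 h array, and the difference between the 2 intervals did not pass at -0.73 ± 0.72 (SE; adjusted p = 0.705). The 250 bases before the Nanog start, from RefSeq on GRCm38.p6 at chr6:122707239-122707488, plus strand, are shown because they hold the element through which Oct4 and Sox2 are known to act on this gene in embryonic stem cells. Capitals mark the octamer letters TTTGCAT, 1 base of any kind and the Sox element letters ACAATG, at bases -75 to -62.
Nanog: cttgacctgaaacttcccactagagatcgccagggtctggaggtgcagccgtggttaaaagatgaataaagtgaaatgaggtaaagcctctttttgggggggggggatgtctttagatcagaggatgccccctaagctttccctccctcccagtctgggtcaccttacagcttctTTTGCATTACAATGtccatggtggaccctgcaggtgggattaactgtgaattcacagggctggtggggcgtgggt
On either strand, that element occurred in 2 of 32851 RefSeq promoter windows of this length (0.00609%), both of them Nanog entries. The octamer letters ATGCAAA, which the reverse strand of the element contains, occurred in 4.12% of windows. A match describes the letters and is not a measured binding site.

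Within the pluripotency network as a whole, 10 of 25 tested genes rose and 4 fell (2 with each other scaling), against 15.8% and 24.5% of all genes. The median was 0.56, against -0.09 for all genes. Sall1, a paralogue of Sall4, read 969, 334 and 424 at 44 h, against 3.2, 1.1 and 2.57 at 20 h, and rose by 4.87 ± 0.39 (SE; adjusted p = 3.15e-08), although a dimmer probe set gave 0.67. Klf5, a factor of both inner and outer cells, rose by 1.51 ± 0.39 (SE; adjusted p = 0.00445), against 3.12 in uninjected embryos, and the intervals were not shown to differ (adjusted p = 0.182). Sox2, the usual partner of Oct4, read 20.1, 12.7 and 5.24 at 44 h, against 278, 286 and 359.9 at 20 h, and fell by 3.52 on the log2 scale (SE 0.33, adjusted p = 1.6e-07). Tcl1, an Akt co-activator abundant in the egg, fell as well. Esrrb did not pass with its brightest probe set (0.60, adjusted p = 0.186), and its 2 other probe sets gave 2.43 and 1.45. Klf4 fell by 0.62 on the log2 scale (adjusted p = 0.0401), a call lost without any of 4 single arrays (20 h replicate 1 or 2, 44 h replicate 2 or 3, adjusted p between 0.0948 and 0.147) and with each other scaling.

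Pou5f1 itself read 2556, 1384 and 2668 in Sall4 morpholino embryos at 44 h, against 2717, 2811 and 3453 at 20 h. The change was -0.49 ± 0.22 (SE; adjusted p = 0.0875) and did not pass, while uninjected embryos read 4388, 4049 and 4074 at 44 h, against 2878, 2754 and 3071 at 20 h. The 44 h Sall4 morpholino arrays all lay below the 44 h uninjected arrays, and the middle one was the lowest of all. The difference between the intervals was -1.01 ± 0.32 (SE; adjusted p = 0.146) and did not pass.

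**Figure D1:**
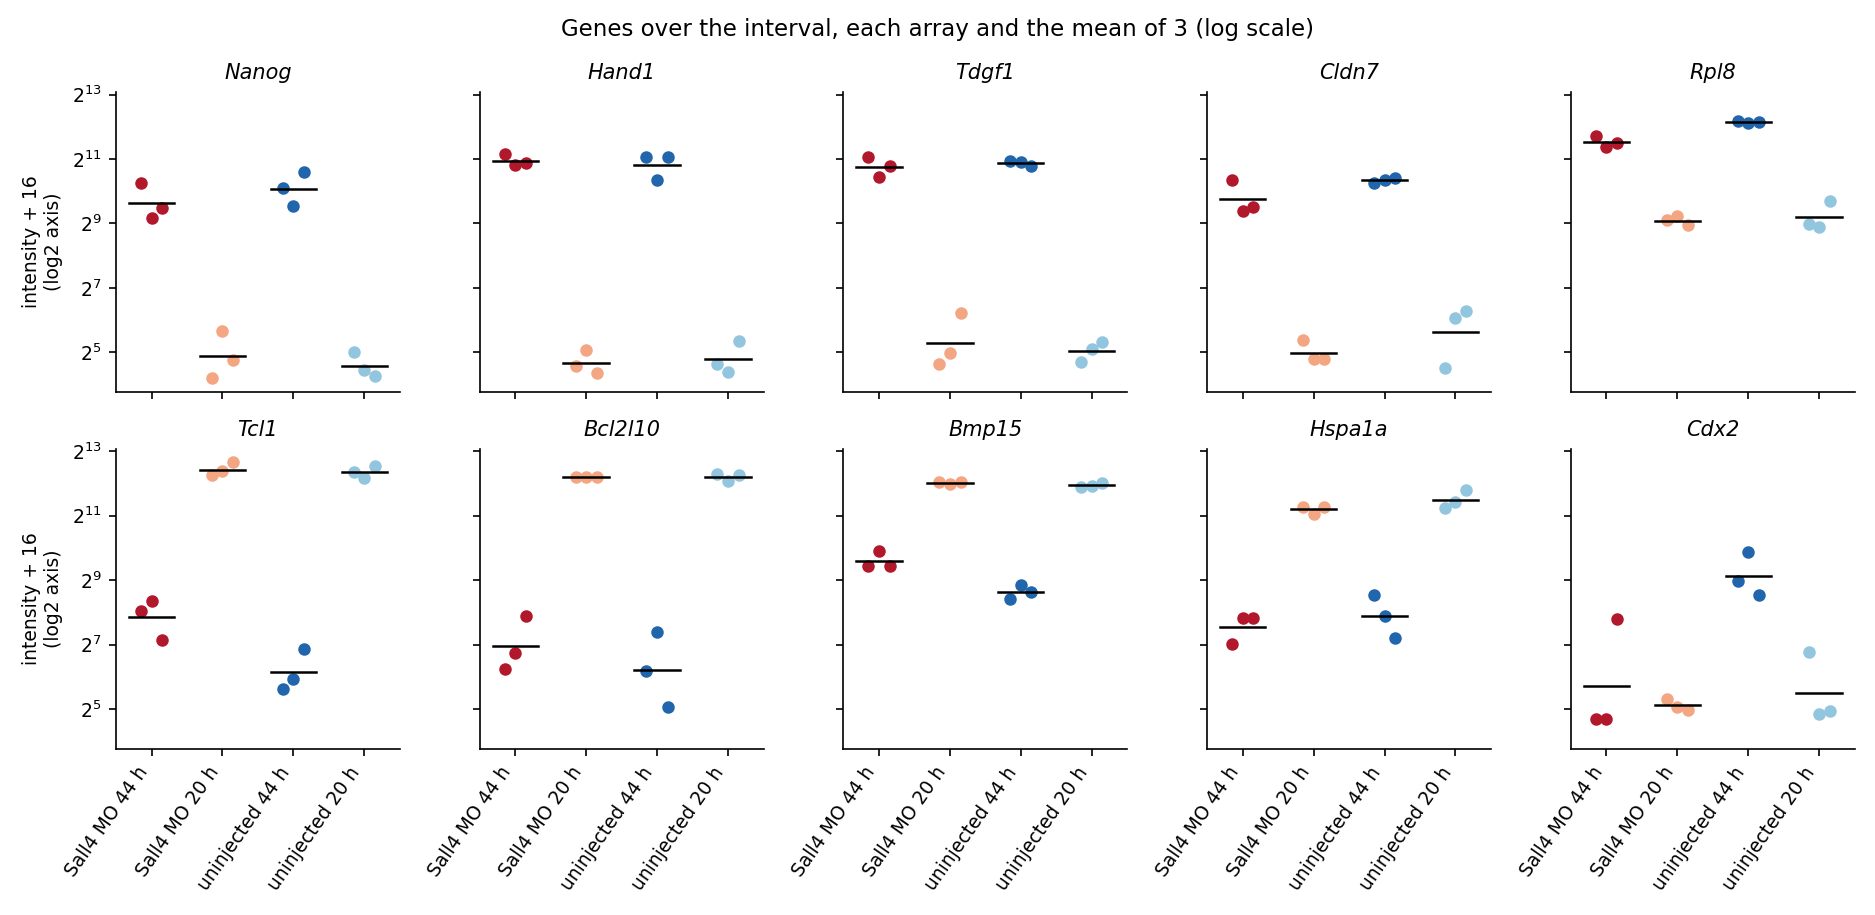
Array intensity plus 16 on a log2 axis for 10 genes, with 1 point per array and a bar at the mean of 3 arrays taken on the log scale, for Sall4 morpholino (MO) and uninjected embryos at 44 h and 20 h. Nanog, Hand1, Tdgf1, Cldn7 and Rpl8 are higher at 44 h on every array of both kinds of embryo, Tcl1, Bcl2l10, Bmp15 and Hspa1a are lower on every array, and Cdx2 in Sall4 morpholino embryos reads 9.84, 9.59 and 206 at 44 h.

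Genes that mark the outer cell lineage went both ways. Of 19 tested trophectoderm factors and keratins, 5 rose and 4 fell, against 15.8% and 24.5% of all genes. Their median of -0.15 turned to 0.14 with quantile normalization. Tfap2c, a transcription factor of this lineage that is already maternal, read 3946, 3392 and 4067 at 44 h, against 1729, 1825 and 1416 at 20 h, and rose by 1.19 ± 0.19 (SE; adjusted p = 6.5e-05). Id2 and Tfap2a fell, although 2 dim probe sets of Id2 gave 0.55 and 0.39. Cdx2, the factor that maintains trophectoderm, read 9.84, 9.59 and 206 in Sall4 morpholino embryos at 44 h, against 23.4, 17.6 and 15.5 at 20 h. It was above the 20 h arrays on 1 of 3 arrays and did not pass (0.61 ± 0.95 (SE; adjusted p = 0.65)). In uninjected embryos Cdx2 read 487, 921 and 358 at 44 h, against 92.2, 12.6 and 14.7 at 20 h, which passed (3.62 ± 0.95 (SE; adjusted p = 0.00404)), but the difference between the intervals did not at -3.01 ± 1.34 (SE; adjusted p = 0.314). Gata3 (0.07), Eomes (-0.39), Krt8 (-1.66) and Krt18 (2.25) did not pass either, with adjusted p between 0.0612 and 0.964.

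The Hippo pathway acts in mouse embryos, through Yap1 and Tead4, on whether a cell takes the outer (trophectoderm) or the inner lineage. It had 6 rises and 3 falls among 21 tested genes, against 15.8% and 24.5% of all genes. Yap1, the co-activator, read 3356, 3078 and 3915 at 44 h, against 7894, 8068 and 7667 at 20 h, a fall of 1.19 on the log2 scale (SE 0.20, adjusted p = 0.000108). Its paralogue Wwtr1 rose by 2.40 ± 0.66 (SE; adjusted p = 0.00643). Wwtr1 lost the call without the 20 h replicate 3 (adjusted p = 0.0562). Their DNA-binding partner Tead4 read 524, 99 and 762 at 44 h, against 188, 106 and 6.69 at 20 h, with overlap. Its rise, 2.14 ± 0.67 (SE; adjusted p = 0.0146), was lost without the 20 h replicate 3 (adjusted p = 0.123), the 44 h replicate 1 (0.0614) or the 44 h replicate 3 (0.0896). Another Tead4 probe set gave 3.10.

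Among primitive endoderm genes, 3 of 17 rose and 4 fell, shares near those of all genes (15.8% and 24.5%), and with the trimmed mean 5 rose and 4 fell. Gata6, which drives this inner lineage, read 834, 207 and 673 at 44 h, against 27.1, 195 and 31.8 at 20 h, and rose by 2.74 ± 0.48 (SE; adjusted p = 0.000156). Lamb1 and Lamc1, laminin chains of the basement membrane, fell by 1.78 and 1.87 on the log2 scale. The group's remaining large fall was Dab2, described below. Junction and polarity genes gave 3 rises and 7 falls among 25, also near the shares of all genes, against 5 and 8 with quantile normalization and 5 and 7 with the trimmed mean. Cldn7, a tight junction claudin, read 1277, 655 and 711 at 44 h, against 26.1, 11.7 and 11.5 at 20 h, and rose by 4.75 ± 0.47 (SE; adjusted p = 3.18e-07), close to the 4.71 of uninjected embryos. Pard6b, a polarity protein needed for cavitation, fell to 62.3, 185 and 93 at 44 h, against 751, 748 and 4710.0 at 20 h. Cdh1, the adhesion molecule of compaction, did not pass (-0.17 ± 0.21 (SE; adjusted p = 0.541)). Of the water channel and sodium pump genes, Aqp3 rose by 1.44 ± 0.49 (SE; adjusted p = 0.0245) and Atp1b1 fell by 3.00 on the log2 scale (adjusted p = 8.89e-06). Aqp3 lost the call without the 20 h replicate 1 (adjusted p = 0.129), the 20 h replicate 2 (0.0681) or the 44 h replicate 1 (0.0921), and 2 bright probe sets of Atp1b1 gave only -0.55 and -0.61.

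The protein-making machinery had many more rises than falls. Of 45 tested ribosomal protein genes, 33 rose and 1 fell, against 15.8% and 24.5% of all genes, and the median was 1.06. Rps15 read 4955, 5354 and 4293 at 44 h, against 857, 875 and 664 at 20 h, a difference of 2.59 ± 0.20 (SE; adjusted p = 2.04e-08). Rpl8 read 3317, 2618 and 2889.8 at 44 h, against 530.5, 586 and 477 at 20 h, a difference of 2.43 ± 0.22 (SE; adjusted p = 1.14e-07). Neither gene's times came near each other, and Rpl7 (2.35) and Rpl14 (3.13) rose too. Nucleolar genes that assemble ribosomes gave 22 rises and 3 falls among 55 (1 fall with quantile normalization or the trimmed mean), with Utp4, a processome component, at 2.32 ± 0.30 (SE; adjusted p = 6.53e-06). Among 61 translation factors 29 rose and 5 fell, and among 38 aminoacyl-tRNA synthetases 12 rose and 1 fell. Eef2k, the kinase that restrains elongation, was an exception that fell by 5.25 on the log2 scale (adjusted p = 4.41e-06).

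Many mitochondrial genes rose as well. Of 76 mitochondrial ribosomal proteins 39 rose and 5 fell, against 15.8% and 24.5% of all genes, with a median of 1.13. Mrps31 read 636, 706 and 945 at 44 h, against 71.5, 21.5 and 11.6 at 20 h, and differed by 4.10 ± 0.37 (SE; adjusted p = 1.28e-07). Of 80 genes of the respiratory chain and ATP synthase 44 rose and 6 fell, with a median of 1.37. Ndufa5, a complex I subunit, read 2759, 2545 and 2624 at 44 h, against 231, 153 and 368 at 20 h, which gave 3.40 ± 0.29 (SE; adjusted p = 5.84e-08). In the citric acid cycle 6 of 27 genes rose and 8 fell, against 15.8% and 24.5% of all genes. Its median of -0.40 became 0.33 with quantile normalization. The proteasome, which degrades tagged proteins, gave 33 rises and 3 falls among 45, Psmd8 among them at 2.72 ± 0.51 (SE; adjusted p = 0.000289). The cytosolic chaperonin and its partners gave 7 rises and 1 fall among 15, and Pfdn6, a prefoldin subunit, reached 2.84 ± 0.33 (SE; adjusted p = 2.15e-06). The spliceosome list had 20 rises and 8 falls among 50.

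**Figure D2:**
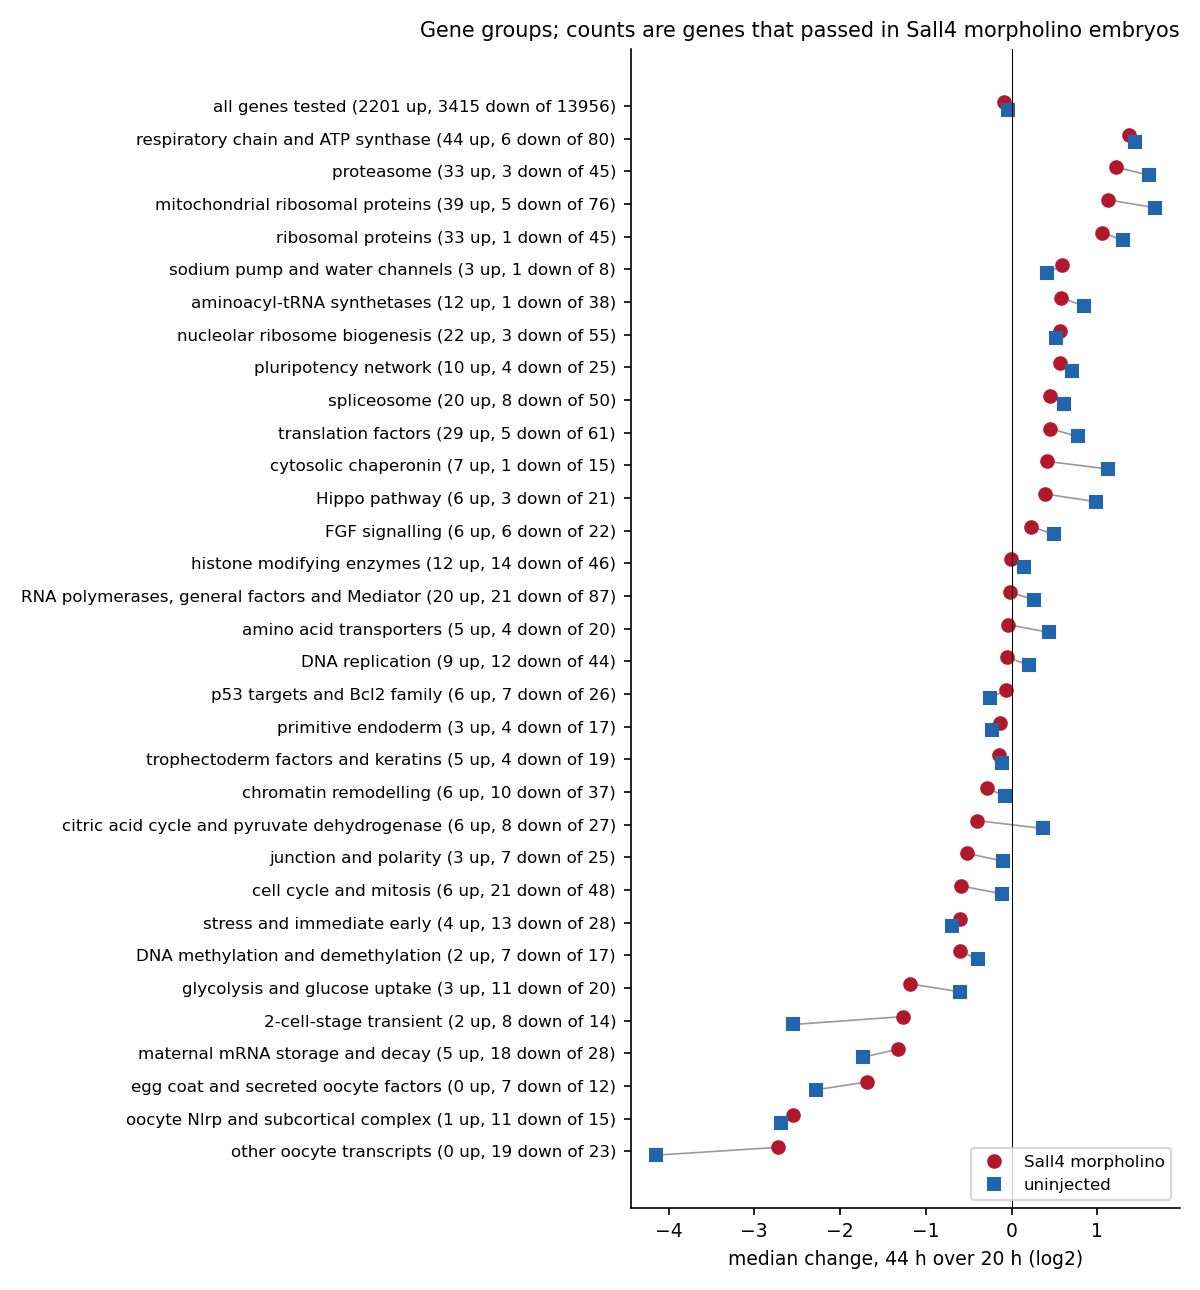
Median change between 44 h and 20 h on the log2 scale for gene lists with at least 8 tested members, in Sall4 morpholino and uninjected embryos. In Sall4 morpholino embryos the respiratory chain (1.37), proteasome (1.22), mitochondrial ribosome (1.13) and ribosome (1.06) lie highest, and the other oocyte transcripts (-2.72) and the Nlrp and subcortical complex (-2.55) lie lowest.

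Most of the tested transcripts known from the egg fell, against 24.5% of all genes. Bmp15, an oocyte growth factor, read 684, 943 and 675 at 44 h, against 4194, 4068 and 4200.0 at 20 h, and differed by -2.43 ± 0.19 (SE; adjusted p = 1.81e-08). Its relative Gdf9 differed by -2.04 ± 0.27 (SE; adjusted p = 8.74e-06). Of 12 genes for the egg coat and secreted oocyte factors 7 fell and none rose, while Zp3, a coat glycoprotein, was at 281, 169 and 486 at 44 h, against 403, 243 and 179 at 20 h, and did not pass. Among 15 Nlrp and subcortical complex genes, which serve the early cleavages from maternal stores, 11 fell. Nlrp4f differed by -3.42 ± 0.30 (SE; adjusted p = 7.7e-08). The exception was Khdc3, a member of the subcortical complex, which rose by 3.50 ± 0.67 (SE; adjusted p = 0.000374) and by 3.34 in uninjected embryos.

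Further oocyte transcripts fell in 19 of 23 cases, against 24.5% of all genes, and none rose. Tcl1 read 249, 308 and 124 at 44 h, against 4859.7, 5305 and 6439.8 at 20 h, a difference of -4.59 ± 0.44 (SE; adjusted p = 1.98e-07). Bcl2l10, a Bcl2 family member abundant in eggs, read 59.6, 91.2 and 218 at 44 h, against 4690.5, 4722 and 4688 at 20 h, which gave -5.25 ± 0.47 (SE; adjusted p = 1.06e-07). The 20 h arrays of Bcl2l10 lay close together and the 44 h arrays far apart. The largest fall of any gene whose times did not overlap was Nefl, a neurofilament chain, at 12.9, 25.4 and 19.9 at 44 h, against 2294, 2870.1 and 3346 at 20 h (-6.33 ± 0.34 (SE; adjusted p = 5.66e-10)), though a dim probe set of Nefl gave 0.18. Sytl4, Bmp5 and Nr2e1 were others among the 15 largest, at -5.85, -5.77 and -5.94.

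Genes that store and clear maternal mRNA mostly fell themselves, 18 of 28 against 5 rises. Of all genes, 24.5% fell and 15.8% rose. Btg4, which brings the deadenylase to maternal mRNA, read 1019, 1118 and 256 at 44 h, against 8056, 7811 and 6962 at 20 h, and differed by -3.48 ± 0.40 (SE; adjusted p = 1.5e-06). Pan2, a deadenylase subunit, differed by -3.19. Cpeb2, a regulator of cytoplasmic polyadenylation, went the other way, with 644, 511 and 563 at 44 h, against 50.7, 66.3 and 8.19 at 20 h. Genes that mark the 2-cell stage fell in 8 of 14 cases and rose in 2. Obox3, an oocyte and early embryo homeobox gene, read 205, 522 and 435 at 44 h, against 2477, 2263 and 1982 at 20 h, and Usp17la, a deubiquitinase, differed by -3.28.

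Stress and immediate early genes fell in 13 of 28 cases and rose in 4, against 24.5% and 15.8% of all genes. Hspa1a, the inducible Hsp70 that mouse embryos make at the onset of their own transcription, read 114, 208 and 213 at 44 h, against 2457, 2103 and 2431 at 20 h, and differed by -3.64 ± 0.37 (SE; adjusted p = 4.37e-07). Egr1 and Gadd45a, an early growth response factor and a damage-inducible gene, differed by -2.82 and -3.92. In glycolysis and glucose uptake, 11 of 20 genes fell and 3 rose, against 24.5% and 15.8% of all genes, but 7 fell and 4 rose with quantile normalization and 8 and 4 with the trimmed mean. The list included Pgk1, a payoff-phase enzyme, at -2.60 ± 0.30 (SE; adjusted p = 1.57e-06). The glucose transporters went opposite ways. Slc2a3 rose to 1381, 659 and 768 at 44 h, against 71.6, 87.7 and 15.9 at 20 h, and Slc2a1 had 399, 274 and 202 at 44 h, against 946, 984 and 1215 at 20 h. The fall of Slc2a1 had an adjusted p of 0.0459, and without any 1 of the 6 arrays it lay between 0.0522 and 0.134. Its other probe sets gave -2.66 and -2.23, against -1.83 for the brightest.

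Cell cycle genes gave 21 falls and 6 rises among 48. Over all genes 24.5% fell and 15.8% rose, the shares beside which this and the next lists are to be read. Cdk4, a G1 kinase, read 498, 501 and 598 at 44 h, against 58.9, 80.2 and 56.7 at 20 h, a rise of 2.76 ± 0.37 (SE; adjusted p = 8.55e-06). Cdkn1a, the p53-responsive inhibitor p21, rose by 2.68 ± 0.46 (SE; adjusted p = 0.000111). Rb1, the retinoblastoma protein gene, fell to 109, 116 and 97.8 at 44 h, against 1499.6, 1352 and 1388 at 20 h, and Wee2, the oocyte meiosis inhibitor kinase, differed by -2.54. DNA replication genes gave 9 rises and 12 falls among 44 (10 and 9 with quantile normalization): Gins1, of the replicative helicase, was at 3.11 and Dut, which removes dUTP, at -2.22. A second Dut probe set gave -0.16. Of 17 DNA methylation and demethylation genes 2 rose and 7 fell, Tet3, the maternal 5-methylcytosine oxidase, by 2.53 on the log2 scale. Histone modifying enzymes gave 12 rises and 14 falls among 46, and chromatin remodellers 6 and 10 among 37. With quantile normalization these became 16 and 10, and 10 and 7. FGF signalling genes gave 6 of each among 22, with Fgfr2, a receptor, at 2.86 and Spry4, a feedback inhibitor, at -4.17.

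Most markers of cells that could accompany the embryos were at or below the table's median, with some above it. Of 14 cumulus and granulosa markers 5 were bright enough to test, and the summed intensity of all 14 was 208 to 312 at 44 h, against 318 to 419 at 20 h. The defining genes Foxl2, Fshr and Amh averaged at most 17.4 at either time. Vcan, a cumulus matrix gene, fell, to 8.16, 19 and 25.4 at 44 h, against 107, 108 and 137 at 20 h. Star, a steroidogenic protein, averaged 80.1 at 44 h, against 71.5 at 20 h. The 9 sperm and testis markers summed to 260 to 281 at 44 h, against 282 to 429 at 20 h, and the brightest was Prm1, a sperm protamine. Prm1 read 166, 107 and 123 at 44 h, against 201, 184 and 305 at 20 h, a fall (-0.72 ± 0.25 (SE; adjusted p = 0.0297)) whose call was lost with quantile normalization or the trimmed mean (adjusted p = 0.0748 and 0.105), and its 2 other probe sets gave 0.36 and 0.07. The 12 blood, stroma and fibroblast markers summed to 317 to 591 at 44 h, against 169 to 251 at 20 h, with Pecam1, an adhesion molecule that early embryonic cells also make, the brightest of them. Pecam1 rose by 1.39 ± 0.49 (SE; adjusted p = 0.0304), a call lost without the 20 h replicate 2 or 3 (adjusted p = 0.113 and 0.0562) or the 44 h replicate 1 or 3 (0.113 and 0.0868). The part of these cells in the results was not tested.

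The same interval in uninjected embryos, measured on separate arrays, gave 6348 genes that passed (45.5%), of which 2874 rose (20.6%) and 3474 fell (24.9%). Of the 2874 rises, 1650 also rose in Sall4 morpholino embryos, which is 57.4% of the uninjected rises and 75% of the 2201 rises with the morpholino. Of the 3474 falls, 2622 fell in both, 75.5% of the uninjected falls and 76.8% of the 3415. Only 9 of the 4281 genes that passed in both went opposite ways. Across the 13956 genes the 2 sets of changes correlated at 0.833, with a slope of 0.731 for Sall4 morpholino on uninjected embryos. That correlation is over genes, which are not independent, and all arrays share 1 deposited table. A further 1219 uninjected rises and 848 uninjected falls did not pass with the morpholino. Of those, 1012 and 746 had the same sign, and the difference between the intervals passed in only 24 and 12, so missing the threshold did not show a difference.

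**Figure D3:**
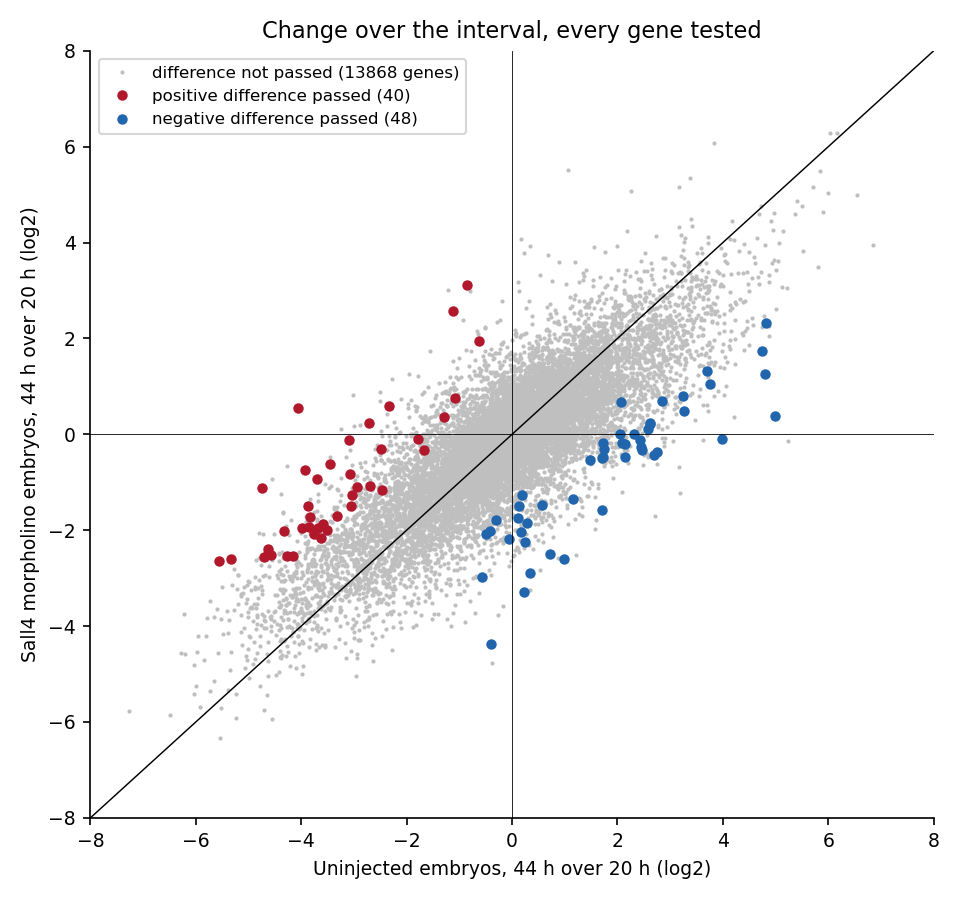
Each of 13956 genes placed by its change between 44 h and 20 h on the log2 scale, in Sall4 morpholino embryos against uninjected embryos. The points run along a diagonal (r = 0.833, slope 0.731), and marked are the 40 genes with a positive and the 48 with a negative difference between the intervals that passed.

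To compare the sizes of the changes on genes called without these arrays, the uninjected embryos of the separate Nanog experiment were used. The probe set per gene and the brightness filter still came from the 24 arrays of the Oct4 and Sall4 experiments. Between 44 h and 20 h, 1480 genes rose there (10.6%) and 2457 fell (17.6%). The 1480 rises had a median change of 1.28 in Sall4 morpholino embryos, against 1.81 in uninjected embryos of the Oct4 and Sall4 experiments. The change was smaller with the Sall4 morpholino in 1114 of the 1480 (75.3%). Over all 13956 genes the change with the Sall4 morpholino was the lower in 7370 and the higher in 6586. The 2457 falls had a median of -1.76 in Sall4 morpholino embryos, against -2.07 in uninjected embryos, and went less far in 65.9% of cases. The same order held in each of 6 other settings tried, such as quantile normalization (1.32 against 1.66, and -1.38 against -1.83). Oct4 morpholino embryos had medians of 1.32 and -1.67, also nearer to 0 than in uninjected embryos.

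The array means of the 512 Nanog experiment rises over 2 on the log2 scale show where this gap lay. They averaged 8.28, 7.73 and 8.32 on the log2 intensity scale in Sall4 morpholino embryos at 44 h, against 8.59, 8.85 and 8.78 in control-injected embryos and 8.79, 8.81 and 8.67 in uninjected embryos. No Sall4 morpholino array at 44 h reached the lowest control-injected or uninjected array, and replicate 2 was the furthest off. At 20 h the averages were 6.29, 6.24 and 6.18 in Sall4 morpholino embryos, against 6.17, 6.13 and 6.0 in uninjected embryos. For the 1148 falls of that size, the averages were 6.79, 6.80 and 6.55 in Sall4 morpholino embryos at 44 h, against 6.24, 6.26 and 6.32 in control-injected and 6.20, 6.11 and 6.01 in uninjected embryos. There too the 44 h groups did not overlap, with the Sall4 morpholino arrays holding more of the mRNA that falls. At 20 h these falls averaged 9.12, 9.13 and 9.24 in Sall4 morpholino embryos, against 9.09, 8.95 and 8.99 in uninjected embryos, so for both sets the Sall4 morpholino arrays were already slightly higher at 20 h, without overlap.

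**Figure D4:**
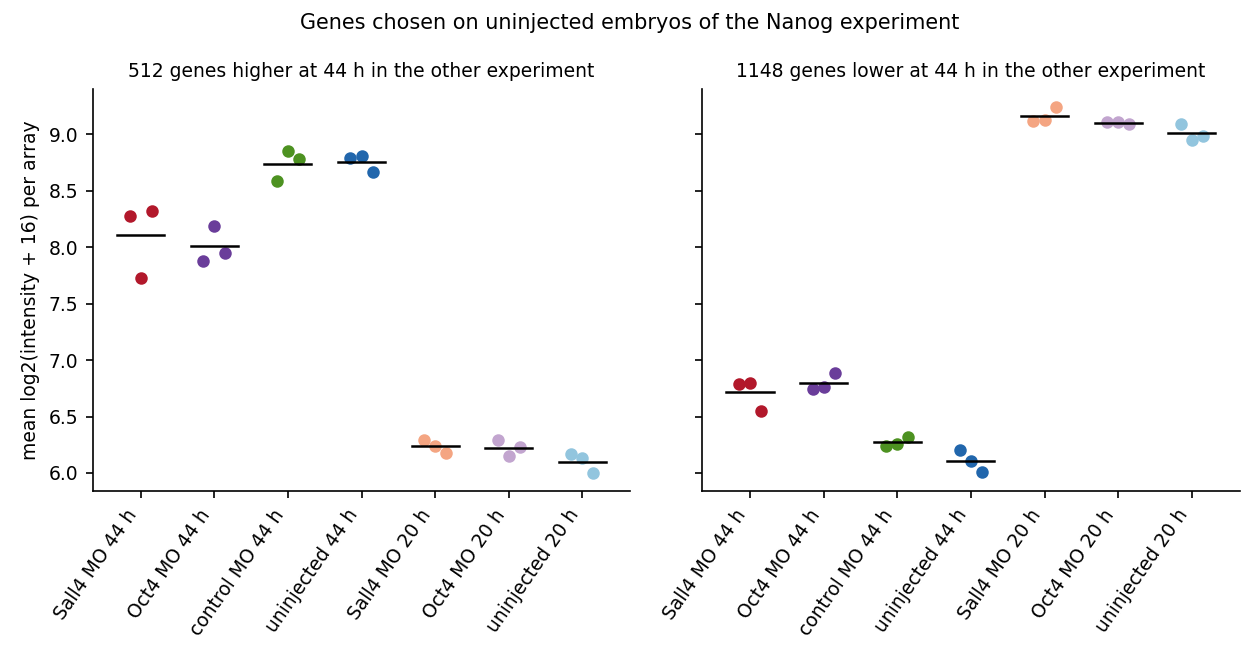
Mean log2(intensity + 16) per array over the 512 genes that rose and the 1148 that fell by more than 2 in uninjected embryos of the Nanog experiment, 1 point per array and a bar at the mean of 3, with Oct4 morpholino, control-injected and uninjected embryos beside the Sall4 morpholino (MO) embryos. At 44 h the 3 Sall4 morpholino arrays lie at 7.73 to 8.32 for the rises, below every control-injected and uninjected array, and at 6.55 to 6.80 for the falls, above every one.

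Gene by gene, the test of the difference between the intervals, Sall4 morpholino minus uninjected, called 88 genes (0.631%): 40 positive (0.287%) and 48 negative (0.344%). At an unadjusted p under 0.05 there were 1983. The split moved with scaling, to 32 positive and 15 negative with quantile normalization, 54 and 29 with the trimmed mean, and 51 and 43 with median centring. The count hung on single arrays. It was 38, 45 and 53 without the 20 h Sall4 morpholino replicates 2, 3 and 1, 48 and 175 without the 44 h Sall4 morpholino replicates 2 and 3, 49, 53 and 51 without the 44 h uninjected replicates 1, 2 and 3, and 56 without the 20 h uninjected replicate 3. With the spread taken only from the arrays compared it was 3, with 1610 at an unadjusted p under 0.05, and 2 of the 3 were among the 88.

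Of the 40 positive genes, 38 had fallen in uninjected embryos, and 24 of these fell less far with the Sall4 morpholino while 12 of the 40 did not pass there and 4 rose. Of the 48 negative genes, 31 had risen in uninjected embryos, 24 of which did not pass with the morpholino, and another 16 fell with the morpholino and did not pass in uninjected embryos. The values of both times chose these genes, so their levels at each time are a description. At 44 h the level of 38 of the 40 and 39 of the 48 passed against uninjected embryos (6.04% of all genes did), and at 20 h that of 1 and 2 (0.0287%). Against control-injected embryos at 44 h, whose arrays did not choose the genes although the Sall4 morpholino arrays did, 28 and 26 passed (2.95%). When the control-injected arrays took the place of the uninjected ones at 44 h, 23 genes passed (0.165%), 16 of them among the 88, but 9 of the 12 arrays are the same in both comparisons and the overlap is no independent support. Where another probe set of the gene was above the filter, all such probe sets had the same sign in 17 of 21 positive and 17 of 20 negative genes.

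Phlda2 had the clearest positive difference. It is an imprinted gene, expressed from the maternal copy, that limits placental growth in the mouse. It read 727, 431 and 524 in Sall4 morpholino embryos at 44 h, against 83.3, 87.5 and 67 at 20 h. Uninjected embryos read 50.6, 55.7 and 40.3 at 44 h, against 132, 101 and 146 at 20 h, and control-injected embryos at 44 h read 79.9, 87.7 and 135. Every Sall4 morpholino array at 44 h was above every control-injected and uninjected array of either time. The gene rose by 2.57 ± 0.39 with the morpholino, changed by -1.13 ± 0.39 in uninjected embryos, and the difference was 3.70 ± 0.55 (SE; adjusted p = 0.00543). It passed with control-injected embryos (2.87, adjusted p = 0.0422), against Oct4 morpholino embryos (2.80, adjusted p = 0.0113), and in all alternatives tried. Its promoter, as the 250 bases before the start in RefSeq on GRCm38.p6 at chr7:143502525-143502774, minus strand, is shown with capitals on TATAAA at bases -30 to -25.
Phlda2: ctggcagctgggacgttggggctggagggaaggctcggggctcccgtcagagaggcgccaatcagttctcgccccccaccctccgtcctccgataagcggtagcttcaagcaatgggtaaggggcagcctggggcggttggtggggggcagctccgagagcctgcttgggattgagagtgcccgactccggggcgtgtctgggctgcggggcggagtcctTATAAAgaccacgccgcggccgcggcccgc
TATAAA on either strand occurred in 12.4% of windows, and CCGCCC, a GC box, in 32.7%. The Phlda2 window also held 2 matches to CCGCCC and none to ATGCAAA.

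Of the 23 tested genes on the list of further oocyte transcripts, 5 were among the positive genes, against 0.287% of all genes. No gene was positive or negative among the 12 egg coat and secreted oocyte factors, the 15 Nlrp and subcortical complex genes or the 28 genes that store and clear maternal mRNA. The 5 were Kit, Omt2a, Omt2b, Oog3 and Tcl1b3, and none of the 23 was negative. Tcl1b3, a relative of Tcl1, read 291, 358 and 516 in Sall4 morpholino embryos at 44 h, against 2466, 2089 and 2624 at 20 h. Uninjected embryos read 62.7, 46.2 and 82.3 at 44 h, against 3127, 2206 and 4554 at 20 h, so the 44 h level was higher with the morpholino on each array. The difference was 2.73 ± 0.54 (SE; adjusted p = 0.03). It was lost without the 20 h Sall4 morpholino replicate 2 (adjusted p = 0.0636), the 20 h uninjected replicate 3 (0.0594) or the 44 h uninjected replicate 1 or 2 (0.053 and 0.0646). Kit, the receptor tyrosine kinase of oocytes, read 125, 164 and 132 in Sall4 morpholino embryos at 44 h, against 914, 828 and 871 at 20 h, and 5.89, 27.7 and 35 in uninjected embryos at 44 h, against 851, 921 and 790.1 at 20 h (2.06 ± 0.39 (SE; adjusted p = 0.0266)). Siah2, a ubiquitin ligase, was 1063 ± 117 in Sall4 morpholino embryos at 44 h and 221 ± 49.9 in uninjected embryos at 44 h (SD, n = 3 each), with 5640.3 ± 142 and 5739 ± 245 at 20 h. Siah2, which lies outside the naming rule and was chosen after its values were seen, as were Kit, Omt2a, Omt2b and Oog3, differed by 2.23 ± 0.41 (SE; adjusted p = 0.0222). Neither Siah2 nor any of the 5 oocyte transcripts passed with the spread taken only from the arrays compared.

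Prkaca, the catalytic subunit of protein kinase A, read 323, 204 and 699 in Sall4 morpholino embryos at 44 h, against 855, 903 and 675 at 20 h, with overlap. Uninjected embryos read 28.1, 8.79 and 17.4 at 44 h, against 731, 713 and 1269.8 at 20 h. The difference was 3.62 ± 0.48 (SE; adjusted p = 0.00543), but control-injected embryos at 44 h were between the groups, at 198, 135 and 196, and with them it did not pass (1.10, adjusted p = 0.355). Chrng, the gamma subunit of the muscle acetylcholine receptor, read 222, 169.9 and 412 in Sall4 morpholino embryos at 44 h, against 6.78, 12.1 and 29.9 at 20 h, a difference of 3.96 ± 0.88 (SE; adjusted p = 0.0454), while its 2 other, dim probe sets gave -0.35 and 0.21 in that test. The Chrng call was lost without each of 11 of the 12 arrays compared, all but the 20 h uninjected replicate 1, with adjusted p between 0.0572 and 0.0924. Lmo4, a LIM-only co-regulator, differed by 4.61 ± 0.86 (SE; adjusted p = 0.0222) through its 20 h level: it read 2.36, 5.52 and 1 in Sall4 morpholino embryos, against 559, 113 and 939 in uninjected embryos. With the 20 h uninjected embryos of the Oct4 experiment in their place, Lmo4 gave 1.02 (adjusted p = 0.593).

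**Figure D5:**
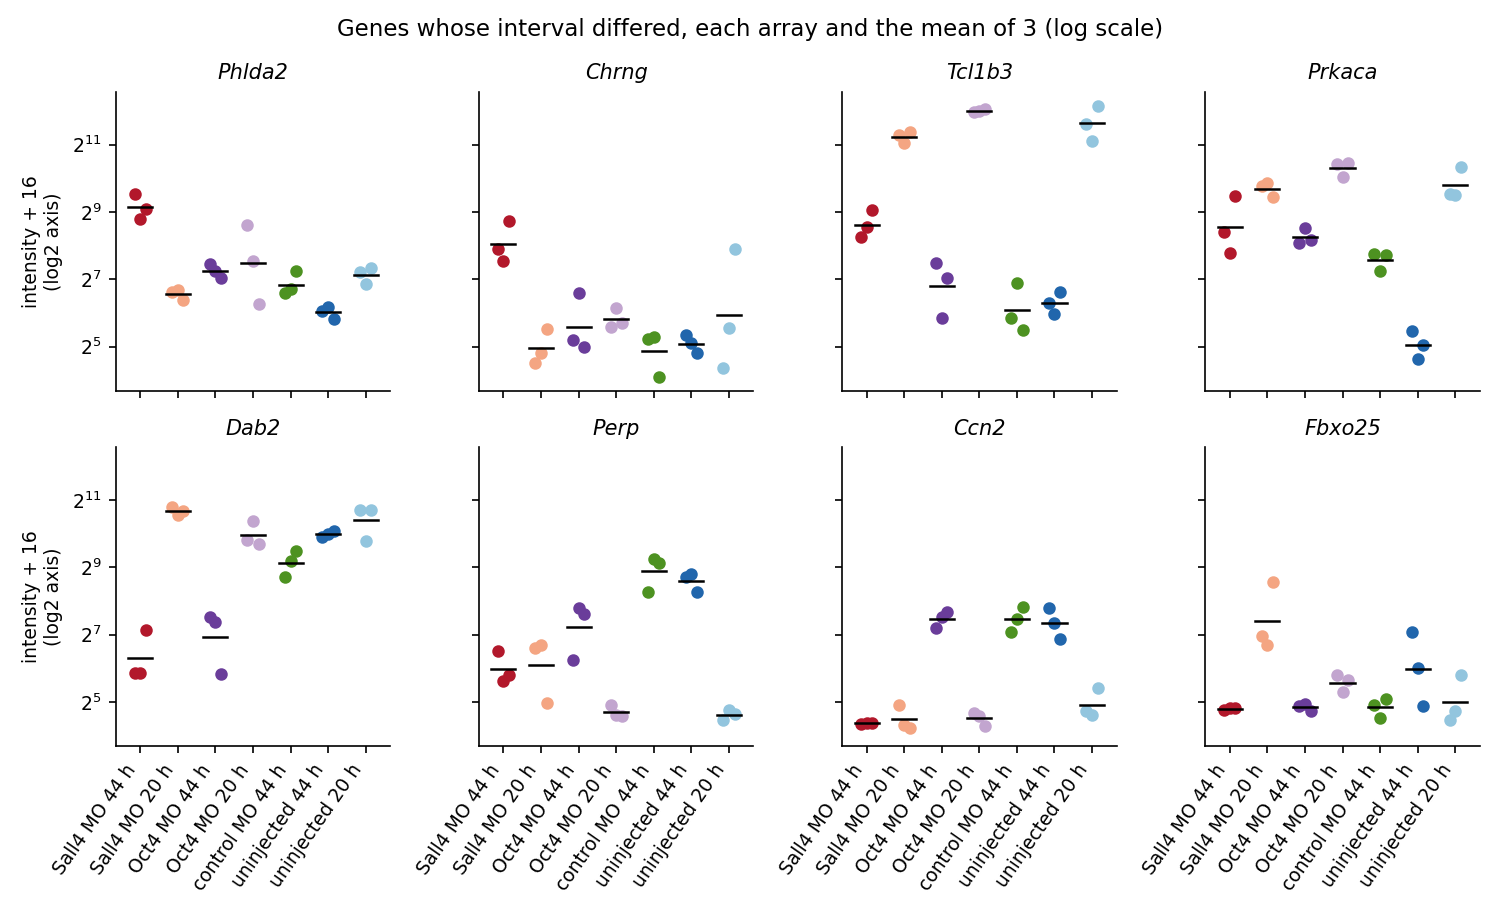
Array intensity plus 16 on a log2 axis for 8 genes whose changes over the interval differed between Sall4 morpholino (MO) and uninjected embryos, 1 point per array and a bar at the mean on the log scale, with Oct4 morpholino and control-injected embryos. Phlda2 reads 727, 431 and 524 in Sall4 morpholino embryos at 44 h, above all other groups there, and Dab2, Perp and Ccn2 lie below the control-injected and uninjected arrays at 44 h.

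Of the negative genes, Dab2 fell with the Sall4 morpholino, while its times overlapped in uninjected embryos. Dab2 is an endocytic adaptor that marks primitive endoderm and is also maternal. It read 42.7, 42.1 and 125 in Sall4 morpholino embryos at 44 h, against 1741, 1484 and 1614 at 20 h. Uninjected embryos read 944, 1006 and 1071 at 44 h, against 1650.0, 862 and 1644 at 20 h, with overlap, and control-injected embryos at 44 h read 405, 564 and 693. The Sall4 morpholino arrays at 44 h were thus the lowest of the 3 kinds of embryo, without overlap. The difference was -3.98 ± 0.57 (SE; adjusted p = 0.00543), it held in all alternatives tried, and the gene's 3 other probe sets gave -1.61, -0.07 and -2.62. Oct4 morpholino embryos were also lower at 44 h on every array, at 168, 151 and 41.1, against 889, 1313 and 807 at 20 h. The interval difference to them did not pass (-1.33, adjusted p = 0.214), so the lower level was not particular to the Sall4 morpholino.

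Perp, a p53-responsive membrane protein of desmosomes, did not rise with the morpholino. It read 75.1, 33.4 and 40.0 in Sall4 morpholino embryos at 44 h, against 81.3, 86.5 and 15.6 at 20 h, with overlap. Uninjected embryos read 401, 433 and 293 at 44 h, against 6, 10.9 and 9.16 at 20 h, and control-injected embryos at 44 h read 289, 592 and 543. The difference was -4.08 ± 0.60 (SE; adjusted p = 0.00543), and it missed the threshold only with the spread taken from the arrays compared (adjusted p = 0.0804). Oct4 morpholino embryos at 44 h lay between, at 60.0, 205 and 181, and the difference to them was -2.62 (adjusted p = 0.0255).

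Ccn2, a matricellular protein and a well known target of Yap1 in other mouse cells, was chosen after its values were seen. It read 4.47, 4.94 and 4.85 in Sall4 morpholino embryos at 44 h, against 14, 4.02 and 2.7 at 20 h, all below the table's median. Uninjected embryos read 206, 147 and 100.1 at 44 h, against 10.4, 8.24 and 26.8 at 20 h, control-injected embryos read 120.3, 161 and 209.7 at 44 h, and Oct4 morpholino embryos 129, 168 and 189.9 at 44 h. The 3 Sall4 morpholino arrays were the only dim ones at 44 h. The difference to uninjected embryos was -2.53 ± 0.40 (SE; adjusted p = 0.00796), to Oct4 morpholino embryos -3.06 (adjusted p = 0.00128), and with control-injected embryos -2.66 (adjusted p = 0.00723). With the spread taken only from the arrays compared, the difference to uninjected embryos did not pass.

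Among the other negative genes, Fbxo25, an F-box protein, had a difference of -3.58, yet control-injected embryos at 44 h read 13.9, 7.06 and 18.3, beside 11.4, 12.1 and 12.2 in Sall4 morpholino embryos. Ddah1, which clears methylated arginine, was at 396, 20.2 and 586 in Sall4 morpholino embryos at 44 h, against 1472, 1691 and 1561 in uninjected embryos, and its difference of -4.62 was lost (adjusted p between 0.0635 and 0.0835) without any 1 of the 20 h Sall4 morpholino arrays, the 44 h uninjected arrays, or the 20 h uninjected replicates 2 and 3. The 44 h Sall4 morpholino replicate 2 stood far below the other 2. Rises of uninjected embryos that did not pass with the morpholino also held Phpt1, a histidine phosphatase (-3.12), and Pnliprp2, a lipase (-3.12), neither of which passed with control-injected embryos (adjusted p = 0.0742 and 0.137). Of the 24 genes named for their difference to uninjected embryos, 22 lost the call in at least 1 alternative, and Phlda2 and Dab2 did not. Pard6b (-2.46, adjusted p = 0.125) and Rpa1, a single-strand DNA binding protein (-3.37, adjusted p = 0.0751), did not pass.

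Against the Oct4 morpholino, the interval difference passed in 390 genes (2.79%), 180 positive (1.29%) and 210 negative (1.50%). Quantile normalization gave 175 and 133, the trimmed mean 212 and 150, and median centring 162 and 283. The count was 207 and 219 without the 20 h Sall4 morpholino replicates 2 and 1, and 208 and 256 without the 20 h Oct4 morpholino replicates 3 and 2. Psmb2, a proteasome core subunit, read 1572, 1806 and 1111 in Sall4 morpholino embryos at 44 h, against 549, 519.6 and 439.6 at 20 h. In Oct4 morpholino embryos it read 90.5, 26.8 and 24.3 at 44 h, against 375, 216 and 253 at 20 h, a difference of 3.87 ± 0.49 (SE; adjusted p = 0.00128). The gene thus rose with one morpholino and lay lower at 44 h on every array with the other. Stress and immediate early genes supplied 6 of the 210 negative differences, among 28 tested. Hspa1a stayed at 2492, 2541 and 1538 in Oct4 morpholino embryos at 44 h, against 3077, 2447 and 2712 at 20 h, while it fell with the Sall4 morpholino, and the difference was -3.28 ± 0.52 (SE; adjusted p = 0.00295). Of the 88 genes that differed from uninjected embryos, 10 differed from Oct4 morpholino embryos with the same sign: Perp, Man2a2, Ccn2, Dnm1l, Tspan31, Scarb1, Nod1, Phlda2, Tcl1b3 and Chrng. Both counts share the Sall4 morpholino arrays.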

How the data were processed

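Affymetrix arrays of amplified RNA were used, 42 in 14 groups of 3. The deposited value table holds the authors' intensity per probe set on a linear scale, whole table minimum 0.42, with 46022 values at exactly 1. How the probe signals were summarised and scaled was not given in the sources used here, including by the labels. Array medians ran between 26.1 and 33.3 in the 24 arrays of the Oct4 and Sall4 experiments and between 193 and 227 in the Nanog experiment, whose 18 arrays therefore stayed out of the fit.

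Intensities were taken to log2 after adding 16. Of 45101 probe sets, 34945 carried 1 gene symbol in the platform annotation, 932 several, 9160 none, and 64 were controls. The brightest probe set stood for each of 18193 genes (9010 had several), and 13956 with a group mean above the table's median, 29.3, in at least 1 of 8 groups were tested with limma 3.58.1 in R 4.3.3 (lmFit, eBayes, 16 residual degrees of freedom, Benjamini-Hochberg adjustment). The procedure was tested on simulated data. Per-gene SEs are limma's moderated ones, and n is 3 arrays in every group. Replicates are labelled biological, but nothing says what they share, so p-values measure the spread between arrays.

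Replicate numbers do not pair the arrays: same-numbered 44 h and 20 h Sall4 morpholino arrays correlated at 0.019, -0.021 and -0.008 in their deviations. Members and gene lists were chosen with earlier results of these data known. Named are the targets, a fixed set of lineage and stage genes, the 15 largest rises and falls without overlap, the 12 largest differences of each sign to uninjected and the 5 largest to Oct4 morpholino embryos, and up to 4 members of each of 36 lists with the largest changes that passed. Genes outside this rule are marked as such. Promoters came from RefSeq on GRCm38.p6: 7 of 10 genes looked up had an entry. Alternatives covered pseudocount, scaling, filter, probe sets, arrays fitted, array weights, intensity trend, a replicate block, and leaving out each array.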

Additional observations from a re-analysis of the deposited data

Results flagged for a closer look

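For 24 genes the change between 44 h and 20 h differed between Sall4 morpholino and uninjected embryos by limma's test of the difference itself, and each is given as Sall4 morpholino minus uninjected on the log2 scale. The positive differences were Lmo4 (4.61), Chrng (3.96), Phlda2 (3.70), Prkaca (3.62), BC080696 (3.19), Fosl2 (2.98), Fnip2 (2.96), Stk10 (2.93), Accsl (2.92), Mmp19 (2.83), Rilpl2 (2.77) and Tcl1b3 (2.73). The negative ones were Ddah1 (-4.62), Perp (-4.08), Dab2 (-3.98), Fbxo25 (-3.58), Lgals8 (-3.53), Man2a2 (-3.53), Zfp28 (-3.30), Rnaset2a (-3.24), Taz (-3.20), Phpt1 (-3.12), Pnliprp2 (-3.12) and Chmp4b (-2.99). Adjusted p ran between 0.00543 and 0.0469. Each value is from the gene's brightest probe set. A dim probe set had the opposite sign in Fosl2 (-0.61), Chmp4b (0.31), Man2a2 (0.12), Chrng (-0.35) and Zfp28 (0.23). The other probe sets of Ddah1, Dab2, Lgals8, Mmp19, Pnliprp2, Prkaca and Taz kept the sign.

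For 10 genes the change differed between Sall4 morpholino and Oct4 morpholino embryos by the same kind of test. Positive, as Sall4 minus Oct4 morpholino, were Ube2r2 (5.97), Tmem238 (3.97), Psmb2 (3.87), Zfp414 (3.78) and 3110040M04Rik (3.72). Negative were Rasl11b (-4.28), Gripap1 (-4.26), Tubb3 (-4.26), Rexo5 (-4.25) and Cdkn1c (-4.20). Adjusted p ran between 0.00128 and 0.0478, and 8 of the 10 lost the call in at least 1 alternative. Over the interval in Sall4 morpholino embryos, another Ube2r2 probe set gave 0.44, against 3.41 for the brightest. The other probe sets of Rexo5 gave -1.26, 0.04 and -0.83 there, against -1.86. Tubb3, a neuronal tubulin, read 159, 495 and 21.2 in Sall4 morpholino embryos at 44 h, against 1899, 2007 and 2265 at 20 h, and 1029, 1422 and 1640.5 in Oct4 morpholino embryos at 44 h, against 735, 1085 and 1135 at 20 h. Zfp414, a zinc finger gene, read 147, 345 and 375 in Sall4 morpholino embryos at 44 h, against 5.33, 12.3 and 3.18 in Oct4 morpholino embryos. These genes were named as the largest of those that passed, so their sizes are described and not tested again.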

How the results depend on the processing

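The count of genes that changed in Sall4 morpholino embryos kept within 1.5 times of 5616 in every alternative run: 4725 to 5169 without single arrays, 5550 with the replicate block, 4611 with the compared arrays only. Uninjected embryos gave 5649 to 5973 without single arrays, and those of the Nanog experiment 3013 to 3614. The 88 differences to uninjected embryos became 40 with a pseudocount of 1, 138 with 64, 47 with quantile normalization, 160 with a gene's probe sets averaged, 211 with all 42 arrays, 3 with the compared arrays only, 219 with the 20 h uninjected embryos of the Oct4 experiment, 23 with control-injected embryos at 44 h and 38 to 175 without single arrays. The 390 differences to Oct4 morpholino embryos became 725 with all 42 arrays, 89 with the compared arrays only and 207 to 399 without single arrays. The replicate block gave 59 and 341 and moved no count by over 1.5 times, and the arrays share only a number. One named gene reversed, Cs, citrate synthase, at -2.75 and 0.03 with quantile normalization (adjusted p = 0.931). Of 171 named genes that changed over the interval, 153 passed in every alternative and 18 lost the call in at least 1. Causes were not tested. With 3 arrays a group, small differences could be missed, and all 88 differences to uninjected embryos were over 1 in log2 size.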

Other observations

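Of 20 amino acid transporters 5 rose and 4 fell, against 15.8% and 24.5% of all genes. Slc7a6, a cationic amino acid exchanger, read 290.4, 240.2 and 296 in Sall4 morpholino embryos at 44 h, against 4.94, 34.5 and 9.2 at 20 h. Slc7a11, the cystine carrier, went the other way, with 5.03, 8.96 and 15.5 at 44 h, against 116, 284 and 484 at 20 h. The p53 target and Bcl2 family list gave 6 rises and 7 falls among 26, near the shares of all genes. Bad, a death agonist, read 442, 118 and 622 at 44 h, against 14.4, 41.3 and 20.1 at 20 h, while Bik, another such protein, read 1.16, 6.22 and 115 at 44 h, against 924, 481 and 1870.2 at 20 h. Both lists have medians close to that of all genes, -0.04 and -0.06 against -0.09.

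RNA polymerase, general factor and Mediator genes gave 20 rises and 21 falls among 87, against 15.8% and 24.5% of all genes, but 26 and 13 with quantile normalization and 26 and 15 with the trimmed mean. Med15, a Mediator tail subunit, read 192, 178 and 168 at 44 h, against 2709.9, 2435 and 3066 at 20 h. Polr3f, of RNA polymerase III, read 759, 776 and 569 at 44 h, against 172, 237 and 28.6 at 20 h. Its other probe sets gave 0.81, -0.27, 0.61 and 1.09, against 2.47 for this one. Those of Med15 gave -0.58, -3.01 and 0.32, against -3.81. Vnn1, a pantetheinase and one of the 15 largest rises, read 1024, 319 and 1576 in Sall4 morpholino embryos at 44 h, against 4.06, 10.3 and 16.2 at 20 h, and 1947, 3307 and 2754 in uninjected embryos at 44 h. Its lowest 44 h array was replicate 2, which was also the lowest Sall4 morpholino array for Nanog, Pou5f1 and Ddah1 at 44 h.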
